A study of Homo sapiens with 15 samples.

Results

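PAPSS2, PAPSS1, ASS1, ASL and AADAT are 5 enzyme genes of sulfate activation, arginine synthesis and amino acid transamination, and their transcripts were followed in BT474 cells that had become resistant to a drug. The genes were picked by symbol, with PAPSS2 and ASS1 chosen because earlier results of the same arrays showed them to differ between resistant clones. Each gene had 1 probe set, and all 5 were among the 12147 genes that passed a filter on dim signals, of 14884 genes with a symbol here. Because the choice used these arrays, the levels of the 5 genes and their changes are given as a description, without a test.

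The study measured total RNA on 15 Affymetrix arrays, 3 for each of 5 groups. BT474 is a human breast cancer line with amplified HER2, and T-DM1 (trastuzumab emtansine) couples the HER2 antibody trastuzumab to a toxin that blocks microtubules. The clones C#1, C#2, C#3 as well as C#6 each grew from 1 BT474 cell that had survived prolonged T-DM1, and they were then kept in 5 nM T-DM1 for 3 months, and the parental BT474 line, labelled sensitive, is what they were set against. All groups shared the same medium with serum. The labels do not say whether T-DM1 was present when RNA was taken, and drug resistance, descent from 1 cell and months with the drug cannot be told apart in this design. The labels call the 3 arrays of a group biological replicates, so they measure the spread within 1 clone or line.

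PAPSS1 and PAPSS2 are bifunctional enzymes that join sulfate to ATP and phosphorylate the product to PAPS, the sulfate donor for the sulfotransferases that modify steroids, drugs, proteoglycans and tyrosine residues. ASS1 condenses citrulline with aspartate to argininosuccinate, and ASL splits this into arginine and fumarate, so both steps let a cell make its own arginine. ASS1 is known as a gene that many tumours silence, which leaves them dependent on arginine from outside. AADAT is a mitochondrial aminotransferase that acts on kynurenine, a product of tryptophan, and on aminoadipate, a product of lysine.

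The arrays carried log2 expression values, so a difference of 1 is a 2-fold difference. The upper quartile of all probe sets lay between 5.80 and 5.89 in the clone arrays and between 5.94 and 5.96 in the parental arrays. Of 12 markers of luminal breast epithelium, 10 had a symbol here and all 10 passed the dim filter, with KRT19 at 10.86 to 11.06 in the clones and 10.79 in the parental line (group means, log2). Levels of the list were not alike in all groups. EPCAM lay at 10.57 to 10.83 in the clones and 10.33 in the parental line, KRT18 at 10.04 to 10.26 and 10.61, ESR1, the oestrogen receptor, at 7.51 to 7.92 and 8.35, and SPDEF at 10.40 to 10.55 and 10.77. GRB7, a neighbour of HER2 in the genome, averaged 10.31, 10.15, 9.5 and 9.31 in C#1, C#2, C#3 and in C#6 and 10.36 in the parental line. GATA3, a luminal transcription factor, averaged 6.23, 5.98, 8.36 and 6.77 in C#1, C#2, C#3 and in C#6 and 9.12 in the parental line. Of 12 markers of other cell types, only 5 had a symbol here, and these were near the bottom of the scale. PTPRC, CD3E, COL1A1, COL3A1, ACTA2, PDGFRB and TP63 could not be read. LYZ, PECAM1 and KRT5 did not pass the dim filter, and VWF and KRT14 lay at 3.86 to 4.21 in all 5 groups, against a filter threshold of 3.56 to 3.62.

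PAPSS2 showed the widest range of the 5 genes between clones. It was 8.90, 8.89 and 8.93 in the arrays of C#6, against 6.47, 6.48 and 6.47 in the parental arrays (log2, replicates 1 to 3). The clone arrays stood far above the parental ones with almost no spread on either side: 8.91 ± 0.02 in C#6 and 6.47 ± 0.01 in parental cells (SD, n = 3 each), a log2 difference of 2.43 (SE 0.13) or 5.40-fold. By size of difference from parental in C#6, PAPSS2 ranked 6 from the highest of the 12147 genes.

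C#3 lay on the same side by much less, with PAPSS2 at 7.08, 7.06 and 6.78 (log2 difference 0.50 from parental, SE 0.13, 1.41-fold), all above the parental arrays. C#2 lay on the other side, at 5.91, 5.54 and 6.09, all below the parental arrays (-0.63, SE 0.13, 1.54-fold lower). C#1 overlapped the parental line at 6.18, 6.34 and 6.47 (-0.14, SE 0.13). In order of level the groups ran C#6, C#3, parental, C#1 and C#2. Of the neighbours in that order, only parental and C#1 overlapped. The clones thus spanned 3.06 log2 units from C#6 to C#2, and C#1 and C#2 themselves did not overlap (C#2 minus C#1, -0.48, SE 0.13).

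PAPSS1, which makes the same product, was slightly higher in every clone and varied little between them. It was 7.86, 7.94 and 7.81 in C#1, 7.87, 7.86 and 7.63 in C#2, 7.80, 7.91 and 7.82 in C#3 and 7.92, 8.19 and 8.08 in C#6, against 7.56, 7.45 and 7.62 in parental cells (log2). All 12 clone arrays lay above all 3 parental arrays, although the lowest C#2 array, at 7.63, barely cleared the highest parental array, at 7.62. The log2 differences were 0.33, 0.24, 0.30 and 0.52 (SE 0.10), or 1.25-, 1.18-, 1.23- and 1.43-fold. The order was C#6, C#1, C#3, C#2 and parental, where neighbouring clones overlapped and C#2 and parental did not. In C#6, where PAPSS2 stood 5.40-fold above parental, PAPSS1 also had its highest mean of the 5 groups.

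**Figure D1:**
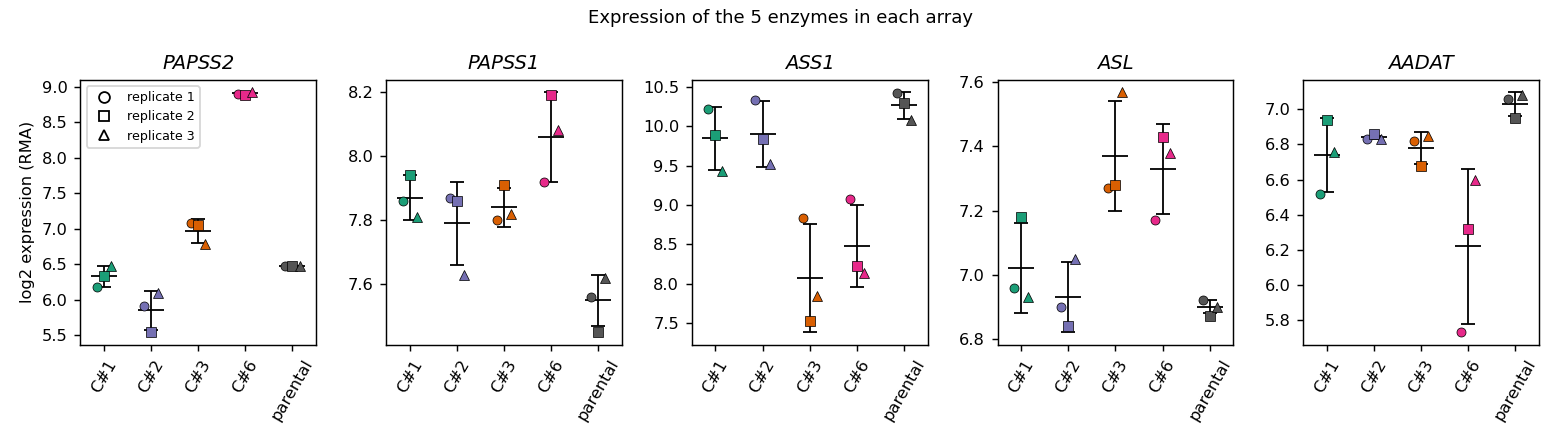
Log2 expression of the 5 enzyme genes in each array, with a panel and a scale of its own for each gene. Symbols are single arrays by replicate number, the long dash is the group mean and the bar is the SD (n = 3). The C#6 arrays of PAPSS2 lie between 8.89 and 8.93, all above the other groups, and those of ASS1 in C#3 and C#6 lie between 7.52 and 9.08, all below the other groups.

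ASS1 was much lower in C#3 and C#6. It was 8.84, 7.52 and 7.84 in C#3 and 9.08, 8.22 and 8.13 in C#6, against 10.43, 10.30 and 10.08 in parental cells (log2). Neither clone overlapped the parental line, and the log2 differences were -2.20 in C#3 (4.61-fold lower) and -1.79 in C#6 (3.46-fold lower, SE 0.31 for each). By size of difference ASS1 ranked 9 from the lowest of the 12147 genes in C#3 and 26 in C#6. C#1, at 10.22, 9.89 and 9.43, and C#2, at 10.34, 9.84 and 9.52, were much closer to the parental line and overlapped it (-0.42 and -0.37, SE 0.31).

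The groups therefore fell in 2 sets, with parental, C#2 and C#1 above and C#6 and C#3 below. Neighbours within each set overlapped, and between C#1 and C#6 there was a gap of 1.36 log2 units in the means with no overlap. ASS1 was also the most variable of the 5 genes within groups, with SDs of 0.40, 0.42, 0.69, 0.52 and 0.17 in C#1, C#2, C#3, in C#6 and in parental cells. The array numbered 1 was the highest of its group in all 5 groups, a pattern shared by 181 of the 12147 genes (1.49%). With any replicate number, 283 genes (2.33%) had the same number highest in all 5 groups. Whether an effect of the replicate number underlies this was not tested. Without replicate 1 of the clone concerned, the ASS1 difference from parental was -0.61 in C#1, -0.59 in C#2, -2.59 in C#3 and -2.09 in C#6. In C#1 and C#2 it was -0.22 and -0.18 without replicate 3 of that clone, so 1 array moved these small differences by more than 1.5 times.

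ASL, the next enzyme of the path, differed in the opposite direction and by less. It was 7.27, 7.28 and 7.57 in C#3 and 7.17, 7.43 and 7.38 in C#6, against 6.92, 6.87 and 6.90 in parental cells (log2). In both clones every array was above the parental arrays, with log2 differences of 0.48 and 0.43 (SE 0.11, 1.39- and 1.35-fold). C#1, at 6.96, 7.18 and 6.93, was above parental by 0.12 (SE 0.11) without overlap. Its lowest array, at 6.93, barely cleared the highest parental array, at 6.92. C#2, at 6.90, 6.84 and 7.05, overlapped the parental line (0.03, SE 0.11). The small C#1 difference was 0.05 without its replicate 2, and that of C#2 was -0.03 without its replicate 3. The order was C#3, C#6, C#1, C#2 and parental, and each neighbouring pair overlapped. With the arrays quantile-normalized again, the difference was 0.13 in C#2.

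The windows around the annotated starts of ASS1 and ASL are shown because these consecutive enzymes differed in opposite directions in C#3 and C#6, and because the ASS1 window holds the E-box at which MYC and HIF1A are reported to act. Both sequences come from RefSeq (GRCh38.p14), run from 250 bases before to 50 bases after a start, and are read 5′ to 3′ on the plus strand. ASS1 is the window of its second listed start, chr9:130444711-130445010, with capitals marking CACGTG, the E-box. ASL is chr7:66075569-66075868, with capitals marking GGGCGG or its reverse complement CCGCCC, the GC box.
ASS1: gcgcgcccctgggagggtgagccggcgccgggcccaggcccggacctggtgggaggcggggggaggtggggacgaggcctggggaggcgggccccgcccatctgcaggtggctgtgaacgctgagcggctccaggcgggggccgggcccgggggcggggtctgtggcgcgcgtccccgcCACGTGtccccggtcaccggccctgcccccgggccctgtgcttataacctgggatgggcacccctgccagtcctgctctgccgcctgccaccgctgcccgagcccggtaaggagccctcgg
ASL: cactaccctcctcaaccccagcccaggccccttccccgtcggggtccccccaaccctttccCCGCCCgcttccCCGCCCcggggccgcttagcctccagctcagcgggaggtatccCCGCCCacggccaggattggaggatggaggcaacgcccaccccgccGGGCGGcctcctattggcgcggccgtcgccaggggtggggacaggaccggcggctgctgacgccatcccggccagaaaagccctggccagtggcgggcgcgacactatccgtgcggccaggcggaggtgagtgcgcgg

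The ASS1 window contained 1 E-box, which starts at -71 from the start, and 2 GC boxes, and the window of the other ASS1 start, which overlaps it, had no E-box and 2 GC boxes. The ASL window contained 4 GC boxes and no E-box. Among the 35116 windows of the same length in the table, 7.26% contained CACGTG and 45.0% contained GGGCGG on either strand. Of the other genes, the PAPSS1 window had 3 GC boxes and no E-box, and of 3 AADAT windows 1 had 2 GC boxes and none had an E-box. TGATGCAA, a core of the amino acid response element that ATF4 binds, on either strand, was in none of these windows and in 0.866% of all windows. A match shows that these letters are present and not that a factor binds there.

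AADAT was lower in all clones, most in C#6. It was 5.73, 6.32 and 6.60 in C#6, against 7.06, 6.95 and 7.08 in parental cells (log2). The C#6 arrays were widely spread but all below the parental ones, with a log2 difference of -0.81 (SE 0.16, 1.76-fold lower) that was -0.57 without replicate 1 of C#6. The other clones were lower by a little, at 6.52, 6.94 and 6.76 in C#1 (-0.29), 6.83, 6.86 and 6.83 in C#2 (-0.19) and 6.82, 6.68 and 6.85 in C#3 (-0.25). None of their arrays reached the lowest parental array, but 1 array of C#1, at 6.94, came close to it, at 6.95, and the C#1 difference was -0.18 without its replicate 1. After renewed quantile normalization the differences of C#2 and C#3 shrank to -0.08 and -0.16. In order of level the groups ran parental, C#2, C#3, C#1 and C#6, and only parental and C#2 did not overlap as neighbours.

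**Figure D2:**
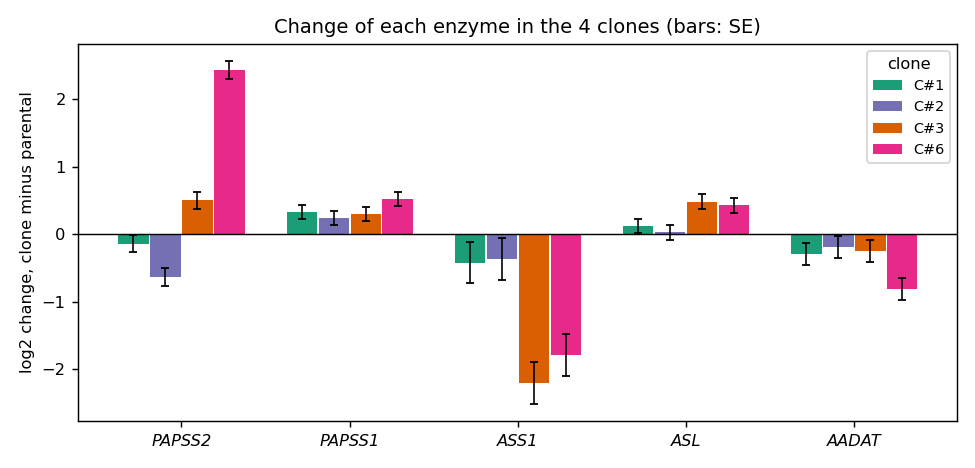
Log2 change of each of the 5 genes in the 4 clones, as the difference of group means (clone minus parental), with the SE of the fit to all 15 arrays. PAPSS2 reaches 2.43 in C#6 and ASS1 reaches -2.20 in C#3, while PAPSS1 lies between 0.24 and 0.52 and ASL between 0.03 and 0.48.

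Set side by side, C#3 and C#6 had 3 of the 5 genes above parental (PAPSS2, PAPSS1 and ASL) and 2 below (ASS1 and AADAT) without overlap. Over all genes tested, 16.7% lay above and 22.3% below without overlap in C#3 (38.9% in either direction), and 16.6% and 24.1% in C#6 (40.7%). C#1 had 2 genes above (PAPSS1 and ASL) and 1 below (AADAT), beside 14.8% and 21.8% of all genes (36.6% in either direction), and C#2 had 1 above (PAPSS1) and 2 below (PAPSS2 and AADAT), beside 14.4% and 22.1% (36.5%). The same contrasts were used to choose the genes, so these counts are given as a description. The 4 comparisons share the parental arrays.

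Other genes of these paths were taken from lists of sulfate, arginine, kynurenine and ATF4 response genes and of reported ASS1 regulators. In that order the lists held 90, 50, 47, 54 and 16 genes. Of these, 54, 30, 29, 34 and 9 had a symbol here, and 49, 26, 24, 34 and 9 passed the dim filter. The paths are thus covered only in part. The genes that passed were tested with limma over all 12147 genes (Benjamini-Hochberg adjusted p below 0.05 within each clone). This called 17.2%, 16.9%, 17.2% and 22.4% of all genes in C#1, C#2, C#3 and in C#6, and 37.5% in at least 1 clone. By direction, 6.03%, 5.47%, 6.22% and 7.73% rose and 11.2%, 11.5%, 11.0% and 14.7% fell. Of all calls 35.0%, 32.3%, 36.2% and 34.5% were higher, and with renewed quantile normalization 47.9%, 47.8%, 49.7% and 50.3%. Without parental replicate 3 the calls over all genes fell by more than 1.5 times, to 1229 in C#1, 1265 in C#2 and 1275 in C#3, and without parental replicate 2 to 1368 in C#3. An F test called 22.5% of all genes as different among the 4 clones. Of the 10 luminal markers, 1, 1, 0 and 1 rose and 3, 2, 6 and 6 fell in C#1, C#2, C#3 and in C#6, with median changes of -0.174, -0.143, -0.397 and -0.394. Their part in the results that follow was not tested.

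The first list held 49 tested genes of sulfate use, PAPS-dependent sulfonation and sulfur oxidation, and the share of it that was called lay near the share of all genes. CHST12 and CHST11, which sulfate chondroitin, fell in all 4 clones. CHST12 averaged 6.86 ± 0.13, 6.88 ± 0.09, 7.22 ± 0.13 and 6.95 ± 0.25 in C#1, C#2, C#3 and in C#6 and 7.83 ± 0.09 in parental cells (log2, SD, n = 3 each), with changes of -0.97, -0.95, -0.61 and -0.87 (SE 0.12, highest limma adjusted p = 0.0028). CHST11 changed by -0.60, -0.40, -0.46 and -0.76 (SE 0.12). Its C#2 call was lost without any 1 parental array or C#2 replicate 1 or 3 (-0.52 to -0.31), and its C#3 call without parental replicate 1 or 2 or C#3 replicate 2 (-0.53 to -0.39). Here and below, a range in brackets after a lost call runs over all 15 fits that left out 1 array. It includes fits that kept the call. HS3ST3B1, which adds 3-O-sulfate to heparan sulfate, rose in C#6 by 1.04 (SE 0.19, limma adjusted p = 0.0009), with changes of -0.45, -0.37 and 0.24 in C#1, C#2 and C#3 that were not called (limma F test among clones, adjusted p = 8.7e-05). HS6ST2 and HS6ST3, which add 6-O-sulfate, fell in C#3 (-0.95 and -0.90), and HS6ST3 also in C#6 (-0.71, SE 0.16 each). HS6ST2 averaged 3.70 in C#3, near the filter threshold, and 4.65 in parental cells. TPST1, which sulfates tyrosine in secreted proteins, rose in C#6 by 0.71 (SE 0.16). Among other sulfotransferases of proteoglycans, HS3ST3A1 was called higher in C#6 (0.60, SE 0.17) and UST lower in C#3 (-0.43, SE 0.11). CHST3, CHST7, CHST13, CHST14, CHST15, HS2ST1 and HS6ST1 were not called in any clone.

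NDST1, which starts the sulfation of heparan sulfate and was named after its values were seen, fell in C#2 (-0.57) and C#6 (-0.46, SE 0.11) and was also called in C#1 (-0.42) and, in the other direction, in C#3 (0.38). The C#1 call was lost without C#1 replicate 1 or 3 or parental replicate 3 (-0.51 to -0.36), and the C#3 call without parental replicate 1 or 2 or C#3 replicate 1 or 2 (0.35 to 0.42). In sulfide oxidation, SQOR rose in C#1 by 0.68 and in C#2 by 0.72 (SE 0.14), with -0.34 in C#3. TST, the sulfur transferase rhodanese, fell in C#1 (-0.92, SE 0.20) and was called in C#2 (-0.68) and C#3 (-0.61). The C#2 call was lost without parental replicate 1 or 3 or C#2 replicate 2 or 3 (-0.93 to -0.55), the C#3 call without any 1 array of C#3 or of the parental line (-0.67 to -0.51), and both with renewed quantile normalization. No member of the cytosolic sulfotransferase (SULT) or sulfate transporter (SLC26, SLC13) families was among the tested genes.

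Of these 49 genes, 1, 3, 1 and 5 rose and 7, 8, 9 and 6 fell in C#1, C#2, C#3 and in C#6 (16.3%, 22.4%, 20.4% and 22.4% called), 21 were called in at least 1 clone, and 15 differed among the clones. The median change was -0.03, 0.025, -0.054 and 0.007, beside -0.023, -0.018, -0.002 and -0.018 over all genes. After renewed quantile normalization the split was 3 higher and 7 lower in C#1, 4 and 6 in C#2 and 8 and 4 in C#6, and with arrays centred on their median it was 1 and 8 in C#2. The 8 calls in C#1 dropped to 5 without parental replicate 3, the 10 in C#3 to 6 without parental replicate 1, and the 11 in C#6 to 7 without parental replicate 2 or C#6 replicate 3. The 11 calls in C#2 dropped to between 5 and 7 without any 1 of the 3 parental or 3 C#2 arrays.

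In arginine and polyamine metabolism, SRM, which makes spermidine, fell in all 4 clones. It averaged 9.20 ± 0.27, 9.41 ± 0.07, 9.34 ± 0.38 and 9.29 ± 0.48 in C#1, C#2, C#3 and in C#6 and 10.24 ± 0.18 in parental cells (log2, SD, n = 3 each), with changes of -1.04, -0.83, -0.90 and -0.95 (SE 0.21). The C#2 call of SRM was lost without parental replicate 3 (-0.73). SAT1, which acetylates spermidine and spermine, rose in C#1 by 1.17 (SE 0.29), a call lost without C#1 replicate 1 (0.97) or parental replicate 3 (1.02). Its C#2 call (0.88) was lost without any 1 parental array, C#1 replicate 3, C#2 replicate 1 or 2, or C#3 replicate 2 or 3 (0.61 to 1.11), with no dim filter and with trend and robust settings. C#3 and C#6 had SAT1 changes of -0.15 and -0.03. SAT2, a relative of SAT1, rose in C#3 by 1.03 and in C#6 by 0.68 (SE 0.10). It was also called in C#1 and C#2 (0.36 each), where the calls were lost when parental replicate 2, C#1 replicate 1 or 3, or C#2 replicate 1 was left out of its own comparison (0.26 to 0.44), and with the 6 arrays of the comparison alone. The 4 clones differed for SAT1 and SAT2 (limma F test, adjusted p = 0.00463 and 0.000236).

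ADSS1, an enzyme that uses aspartate in purine synthesis as ASS1 uses it in arginine synthesis, rose in C#1, C#2 and C#6 by 0.99, 0.87 and 0.80 (SE 0.12). ADSL, which acts after it, fell in C#3 (-0.48, SE 0.12). AZIN1, an inhibitor of the antizyme that controls polyamine synthesis, fell in C#3 (-0.59, SE 0.11) and was called in C#6 (-0.35), a call lost without any 1 parental array or C#6 replicate 2 or 3 (-0.44 to -0.27). DDAH1, which breaks down methylated arginine, fell in C#1 (-0.67) and C#2 (-0.64, SE 0.10), and its C#3 call (-0.39) was lost without parental replicate 1 or C#3 replicate 1 (-0.43 to -0.34). PRODH, which starts proline breakdown, rose in C#6 by 0.54 (SE 0.14). SLC25A15, the mitochondrial ornithine carrier, had changes of -0.07 to 0.17 (SE 0.13) and ODC1, which makes putrescine from ornithine, of -0.47 to -0.27 (SE 0.27), with no call in any clone.

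Over the 26 tested genes of this group, 3, 4, 2 and 3 rose and 4, 3, 7 and 3 fell in C#1, C#2, C#3 and in C#6 (26.9%, 26.9%, 34.6% and 23.1% called), 13 were called in at least 1 clone, and 8 differed among the clones. The median change was -0.073, -0.012, -0.099 and 0.004. After renewed quantile normalization the split in C#2 was 5 higher and 2 lower. The 7 calls in C#1 dropped to 4 without parental replicate 2 or 3 and to 3 without C#1 replicate 1. Those in C#2 dropped to 4 without parental replicate 2 or C#2 replicate 2 and to 3 without parental replicate 3 or C#2 replicate 1.

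Around AADAT, 24 genes of kynurenine and lysine breakdown and of amino group transfer were tested. QPRT, which takes the kynurenine path on towards NAD, averaged 9.64 ± 0.03, 9.75 ± 0.08, 10.71 ± 0.07 and 10.41 ± 0.06 in C#1, C#2, C#3 and in C#6 and 10.28 ± 0.10 in parental cells (log2, SD, n = 3 each). It fell in C#1 (-0.64) and C#2 (-0.54), rose in C#3 by 0.42 (SE 0.09) and was not called in C#6 (0.13), and the clones differed (limma F test, adjusted p = 1.02e-06). KYNU, which cleaves kynurenine and so uses the same substrate as AADAT, was called higher in all 4 clones, by 0.44, 0.74, 0.57 and 0.46 (SE 0.14). Its calls were lost in C#1 without any 1 array of C#1 or the parental line or C#2 replicate 2 (0.38 to 0.48), in C#3 without C#3 replicate 1 (0.48) and in C#6 without C#6 replicate 1 or any 1 parental array (0.32 to 0.56). AHR, a receptor that kynurenine can activate, fell in C#1, C#2 and C#6 (-0.63, -0.78 and -0.78, SE 0.13), with 0.08 in C#3. KMO, the hydroxylase that competes for kynurenine, had changes of 0.21, -0.01, -0.44 and -0.55 (SE 0.28) and was not called.

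DLST, a subunit of the oxoglutarate dehydrogenase complex, rose in C#1, C#2 and C#6 by 0.61, 0.66 and 0.44 (SE 0.09). Of the genes of lysine breakdown, AASDH, DHTKD1, GCDH and PIPOX were not called in any clone. In the same list AASDHPPT (0.26, SE 0.09) and DLD (0.46, SE 0.15) were called higher in C#6. Among other aminotransferases, ABAT, which acts on the transmitter GABA, fell in C#1 (-0.70, SE 0.16) and was called in C#2 (-0.59), a call lost without parental replicate 3 or C#2 replicate 2 (-0.68 to -0.50). TAT, which acts on tyrosine, was called higher in C#3 (0.80) and C#6 (0.70, SE 0.20). Its calls were lost without parental replicate 3 or C#3 replicate 1 in C#3 (0.61 to 1.01) and without parental replicate 3 or C#6 replicate 1 or 2 in C#6 (0.61 to 0.83). GFPT1, which makes glucosamine phosphate with nitrogen from glutamine, rose in C#6 by 0.46 (SE 0.11). It was called in C#1 (0.43), lost without C#1 replicate 1 or parental replicate 3 (0.35 to 0.49), and in C#3 (0.35), lost without any 1 array of C#3 or the parental line (0.30 to 0.39). PSAT1, of serine synthesis, was called lower in C#3 (-0.60) and C#6 (-0.62, SE 0.20). The C#3 call was lost in 10 of 15 fits that left out 1 array, with changes of -0.82 to -0.41 over all 15. Those 10 left out any 1 parental or C#1 array, C#2 replicate 3, C#3 replicate 2 or 3, or C#6 replicate 3. The C#6 call was lost without any 1 parental array or C#6 replicate 2 or 3 (-0.78 to -0.48). The C#3 call was also lost with no dim filter, renewed quantile normalization or trend and robust settings.

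Of the 24 tested genes of this group, 3, 2, 4 and 6 rose and 4, 3, 2 and 2 fell in C#1, C#2, C#3 and in C#6 (29.2%, 20.8%, 25.0% and 33.3% called), with medians of -0.042, 0.007, -0.021 and 0.078. In all 12 were called in at least 1 clone, and 5 differed among the clones. In C#3 the split after renewed quantile normalization was 4 higher and 0 lower. The 7 calls in C#1 dropped to 4 without parental replicate 3 or C#1 replicate 1. The 6 in C#3 dropped to 2 or 3 and the 8 in C#6 to between 3 and 5 without any 1 array of the parental line or of the clone.

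**Figure D3:**
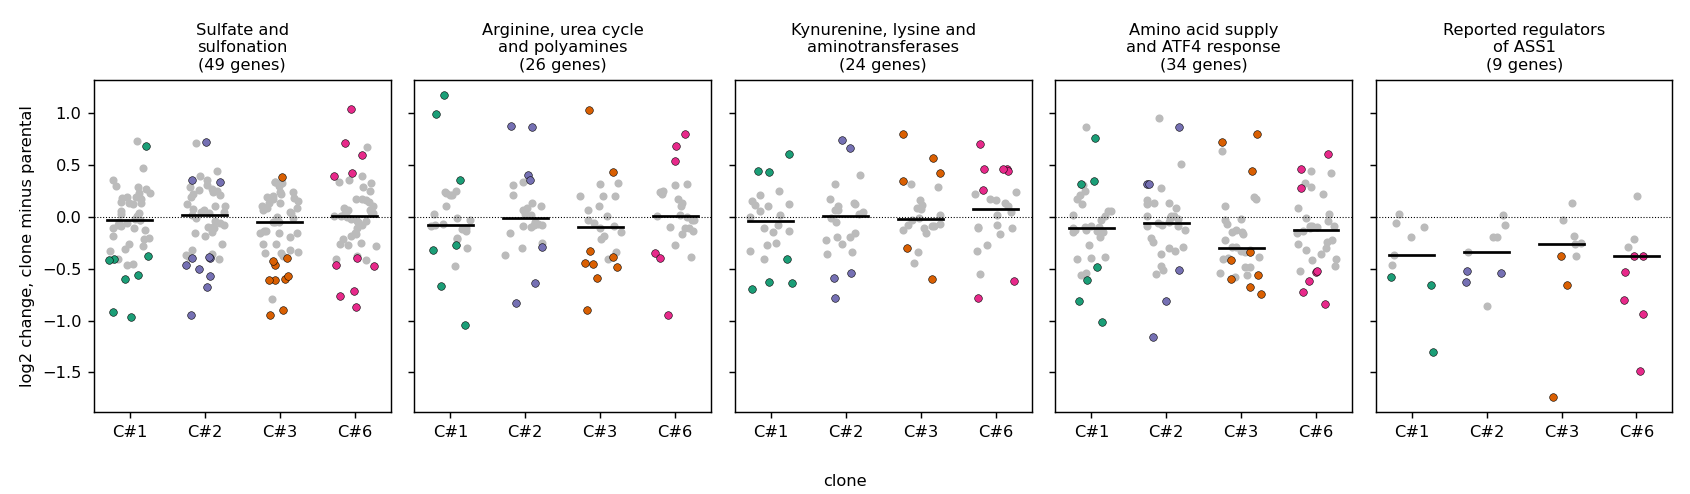
Log2 change (clone minus parental) of every tested gene of 5 lists in each clone. Coloured points were called by limma (adjusted p below 0.05), grey points were not, and the black line is the median of the list. Called genes lie on both sides of 0 in the first 4 lists, and all called genes of the 9 reported regulators of ASS1 lie below 0.

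Amino acid shortage is known to act through the kinase EIF2AK4 and the transcription factor ATF4, and genes of that response were measured because ASS1 is reported among its targets. ATF4 itself had changes of -0.03 to 0.22 (SE 0.15) and ASNS, its classic target, of -0.40 to 0.12 (SE 0.37), with no call in any clone. ATF5, a related factor, fell in C#1 (-1.01) and C#2 (-1.16, SE 0.21), with -0.48 and -0.47 in C#3 and C#6. PSPH, the last enzyme of serine synthesis, fell in C#1 and C#2 (-0.81 each, SE 0.14). EIF4EBP1, a repressor of translation, rose in C#1 and C#2 by 0.76 and 0.87 (SE 0.17). In C#3 and C#6, EIF2AK3, the kinase that signals endoplasmic reticulum stress, rose by 0.80 and 0.61 (SE 0.11). In C#3, SHMT1, which passes carbon from serine to folate, rose by 0.72 (SE 0.14), and CBS, which draws homocysteine into cysteine synthesis, fell (-0.68, SE 0.15).

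GARS1, the glycyl-tRNA synthetase, fell in C#3 (-0.74) and C#6 (-0.72, SE 0.16) and was called in C#1 (-0.48) and C#2 (-0.51). The C#1 call was lost without any 1 parental array, C#1 replicate 2 or 3, C#2 replicate 2, C#3 replicate 3 or C#6 replicate 3 (-0.57 to -0.44), the C#2 call without any 1 parental array or C#2 replicate 2 or 3 (-0.62 to -0.40), and both with renewed quantile normalization. SESN2, a sensor in the control of mTOR by amino acids, was called lower in C#6 (-0.84, SE 0.22), lost without C#6 replicate 2 (-0.70). Of the 34 tested genes, 3 rose in each clone and 4, 3, 6 and 5 fell in C#1, C#2, C#3 and in C#6 (20.6%, 17.6%, 26.5% and 23.5% called), with medians of -0.105, -0.055, -0.303 and -0.126. In at least 1 clone 17 were called, and 11 differed among the clones. PSAT1 and CEBPB each stand in 2 of the lists. With the replicate number as a block the calls were 12 in C#1 and 14 in C#3, and with the 6 arrays of a comparison alone 11 and 17. After renewed quantile normalization the split was 4 higher and 2 lower in C#1, 4 and 2 in C#2 and 5 and 4 in C#6, and with median centring 2 and 4 in C#2 and 2 and 7 in C#6. The 7 calls in C#1 dropped to 3 or 4 without C#1 replicate 2 or any 1 parental array, the 6 in C#2 to 3 without any 1 parental array, and the 8 in C#6 to 5 without parental replicate 2 or C#6 replicate 3 and to 4 without C#6 replicate 2.

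Several transcription factors are reported to act on ASS1, among them MYC and SP4. HIF1A, named above for the E-box, was not among the tested genes of this list. MYC averaged 5.80 ± 0.46, 6.23 ± 0.30, 5.36 ± 0.42 and 5.60 ± 0.43 in C#1, C#2, C#3 and in C#6 and 7.10 ± 0.63 in parental cells (log2, SD, n = 3 each). It fell in C#1, C#3 and C#6 (-1.30, -1.74 and -1.49, SE 0.31, highest limma adjusted p = 0.00739) and was not called in C#2 (-0.86, adjusted p = 0.064). The 4 clones were not called different for MYC (limma F test, adjusted p = 0.173). SP4 fell in C#1, C#3 and C#6 (-0.58, -0.66 and -0.80, SE 0.12), and its C#2 call (-0.52) was lost without parental replicate 3 (-0.44). HSF1, the heat shock factor, fell in C#6 (-0.94, SE 0.12). Its C#3 call (-0.38) was lost without any 1 array of C#3 or the parental line, C#1 replicate 2 or C#2 replicate 2 (-0.39 to -0.36), with no dim filter and with renewed quantile normalization. Of the NF-kappaB subunits, RELA fell in C#1, C#2 and C#6 (-0.66, -0.54 and -0.53, SE 0.11), and NFKB1 was called in C#2 (-0.63, SE 0.16), lost without parental replicate 3 (-0.55). In C#6, EPAS1, a hypoxia-inducible factor, fell (-0.38, SE 0.10), and SP1 was called (-0.38, SE 0.10), lost without C#6 replicate 1 or parental replicate 3 (-0.41 to -0.31).

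Of the 9 tested regulators, 3, 3, 3 and 6 fell in C#1, C#2, C#3 and in C#6 (33.3%, 33.3%, 33.3% and 66.7% called) and 0 rose in any clone. Their medians were -0.366, -0.338, -0.256 and -0.382, beside -0.023 to -0.002 over all genes, 7 were called in at least 1 clone, and 2 differed among the clones (1 without C#6 replicate 1). At an unadjusted p below 0.05 the counts were 5, 5, 5 and 6. The count in C#1 was 5 without C#6 replicate 3, with a stricter dim filter, with the replicate number as a block, or with trend and robust settings, and with renewed quantile normalization 1 gene rose beside 6 that fell in C#6.

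The genes next to each enzyme gene on its chromosome give a measure that the choice of genes did not use. Over the 50 flanking genes (the 5 nearest tested genes on each side), limma called 12, 11, 6 and 12 in C#1, C#2, C#3 and in C#6. Over all genes it called 17.2%, 16.9%, 17.2% and 22.4%. The flanking share was thus above that of all genes in C#1 and C#2, under it in C#3 and near it in C#6. The difference in share was not tested. MINPP1 and CFL1P1, the nearest tested genes on either side of PAPSS2 on chromosome 10, had changes of 0.21 and 0.04 in C#6 (SE 0.12 and 0.18). PAPSS2 itself was at 2.43 there. Of the 10 genes around PAPSS2, limma called 4 in C#6, with ANKRD22 higher (0.70) and NUTM2A-AS1 (-0.57), GLUD1 (-0.53) and IFIT5 (-0.44) lower, and it called 0 in each of the other clones (1 in each at an unadjusted p below 0.05). All 4 calls were lost without parental replicate 2. ANKRD22 was also lost without C#6 replicate 1 (0.50 to 0.88), GLUD1 without parental replicate 3 or C#6 replicate 2 or 3 (-0.65 to -0.40) and with renewed quantile normalization, and NUTM2A-AS1 and IFIT5 without parental replicate 1 or C#6 replicate 2 or 3 (-0.78 to -0.42 and -0.49 to -0.39). NUTM2A-AS1 was not called with the 6 arrays of the comparison alone.

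Around ASS1 on chromosome 9, several flanking genes fell in C#1 and C#2, where ASS1 itself overlapped parental. FNBP1, which shapes membranes, fell in C#1, C#2 and C#6 (-0.58, -0.78 and -0.62), with -0.23 in C#3 (SE 0.10). USP20, a deubiquitinase, fell in C#1 (-0.87) and C#2 (-0.80, SE 0.14), with -0.07 in C#3, and its C#6 call (-0.42) was lost without any 1 parental array or C#6 replicate 1 or 3 (-0.53 to -0.34) and with renewed quantile normalization. C9orf78 fell in C#1 and C#2 (-0.69 and -0.60, SE 0.11). EXOSC2, of the RNA exosome, fell in C#1 (-0.56, SE 0.12), and its C#2 call (-0.38) was lost without any 1 parental array or C#2 replicate 1 or 2 (-0.44 to -0.33) and with renewed quantile normalization. NCS1, the nearest tested gene on one side, was called in all 4 clones (-0.64, -0.60, -0.38 and -0.45, SE 0.11), the C#3 call being lost without parental replicate 1 or 3 or C#3 replicate 1 or 2 (-0.42 to -0.32) and with renewed quantile normalization. LOC100272217, the nearest on the other side, had changes of -0.11, -0.28, 0.40 and -0.05 (SE 0.17) and was not called. Of the 10 genes around ASS1, 5, 5, 1 and 3 fell in C#1, C#2, C#3 and in C#6, beside 11.2%, 11.5%, 11.0% and 14.7% of all genes, and the median changes were -0.40, -0.33, -0.07 and -0.14.

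Among the genes flanking ASL on chromosome 7, KCTD7 and CRCP moved in opposite directions in different clones. KCTD7 rose in C#3 by 0.57 and fell in C#1 (-0.57, SE 0.13), with 0.08 in C#6. Its C#2 call (-0.49) was lost without C#2 replicate 1 or parental replicate 1 and with renewed quantile normalization. Over all 15 fits that left out 1 array its C#2 change was -0.60 to -0.34. CRCP, the nearest tested gene on one side and an RNA polymerase III subunit, was called at -0.39 in C#1, 0.35 in C#3 and 0.30 in C#6 (SE 0.10), with -0.27 in C#2 (limma F test among clones, adjusted p = 7.55e-05). These calls of CRCP were lost in C#1 without C#1 replicate 1 or parental replicate 3 (-0.44 to -0.34) and in C#3 without parental replicate 1 or 2 or C#3 replicate 1 or 2 (0.31 to 0.40). In C#6 the CRCP call was lost in 11 of 15 fits that left out 1 array, with changes of 0.24 to 0.37 over all 15. Of these fits, only those without C#1 replicate 1, C#2 replicate 3, C#3 replicate 3 or C#6 replicate 1 kept it. The call was also lost with no dim filter, with median centring and with the 6 arrays alone. LINC00174 fell in C#2 (-0.62, SE 0.14), and its C#1 call (-0.45) was lost without any 1 parental array or C#1 replicate 1 or 2 (-0.54 to -0.41). TPST1, described above for sulfonation, is also among these neighbours. INTS4P2, on the other side, was called in C#1, C#2 and C#6 (-0.44, -0.41 and -0.44, SE 0.14). All 3 calls of INTS4P2 were lost without any 1 parental array or with renewed quantile normalization, and also without any 1 C#1 array in C#1 and C#2, without C#2 replicate 2 or 3 or C#3 replicate 1 in C#2, and without C#6 replicate 2 in C#6 (-0.54 to -0.28). ZNF117 was called in C#6 (-0.88, SE 0.24), lost without C#6 replicate 3 or parental replicate 2 or 3 (-1.04 to -0.67).

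PAPSS1 and AADAT both lie on chromosome 4. GALNT7, an enzyme of O-linked glycosylation and the nearest tested gene to AADAT on one side, rose in C#1, C#2 and C#6, where AADAT was lower. Its changes there were 0.68, 0.63 and 1.11 (SE 0.10). MFAP3L, the nearest tested gene on the other side, was not called (-0.17 to 0.36, SE 0.18). Around PAPSS1, the nearest tested genes GIMD1 (0.02 to 0.24) and SGMS2 (-0.14 to 0.28, SE 0.13 each) were not called. NPNT, an extracellular matrix protein, fell in C#3 (-1.30, SE 0.21), as did LEF1, a transcription factor of Wnt signalling (-0.89, SE 0.20). TBCK fell in C#1 (-0.66, SE 0.15), and its C#2 call (-0.50) was lost without parental replicate 2 or 3 or C#2 replicate 1 or 2 (-0.59 to -0.44) and with renewed quantile normalization. RPL34-DT was called in C#3 (0.47, SE 0.14), lost without parental replicate 1 or 3 or C#3 replicate 1 or 2 (0.36 to 0.56). The 6 flanking calls in C#3 dropped to 3 without C#3 replicate 1 or 2. The 12 in C#6 dropped to 7 without parental replicate 1 or 3 or C#6 replicate 2 or 3 and to 4 without parental replicate 2. The 11 in C#2 were 7 with renewed quantile normalization, and the 6 in C#3 were 12 with the 6 arrays of the comparison alone.

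**Figure D4:**
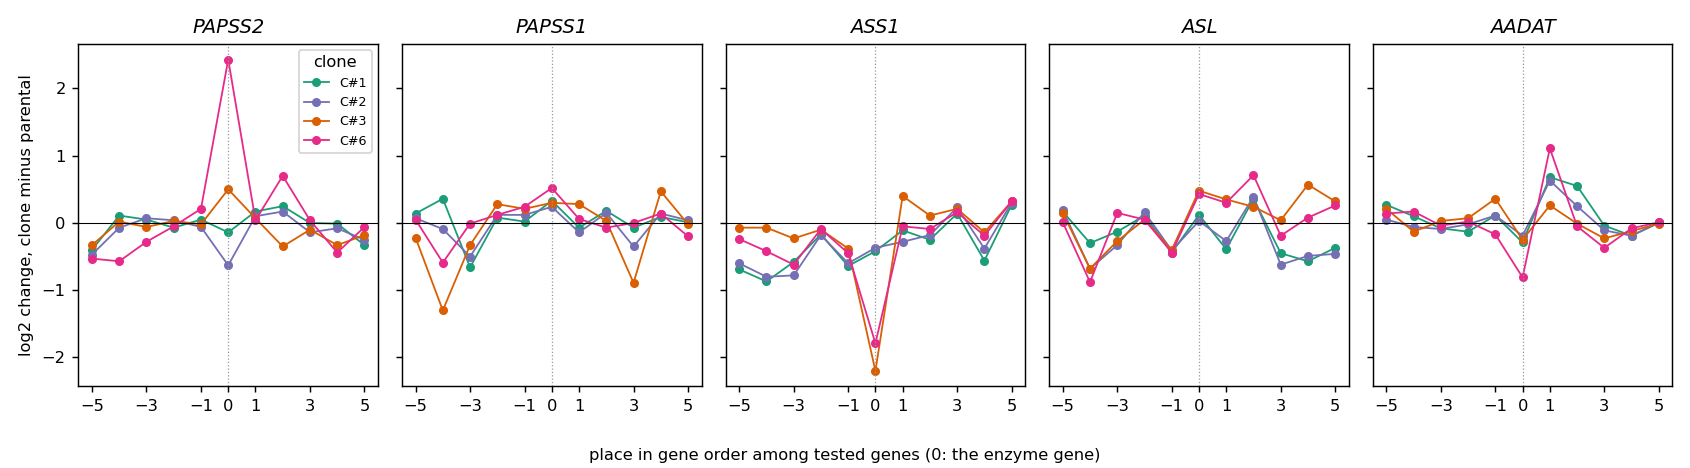
Log2 change (clone minus parental) of the 5 enzyme genes (place 0) and of the 5 nearest tested genes on each side, in gene order without distances, with a line for each clone. PAPSS2 in C#6 (2.43) and ASS1 in C#3 (-2.20) and C#6 (-1.79) stand far from the genes beside them, while ASL lies within the range of its neighbours.

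The genes whose changes were most like those of PAPSS2 and ASS1 were taken as the 5 with the smallest root mean square difference in log2 change over the 12 clone arrays. For PAPSS2 these were MGP, an inhibitor of calcification in the extracellular matrix (0.31), IQGAP2, a scaffold protein (0.59), SRARP (0.61), NXN, a redox protein (0.69), and CPPED1, a phosphatase (0.72). MGP changed by -0.47, -0.39, 0.72 and 2.25 in C#1, C#2, C#3 and in C#6, and PAPSS2 by -0.14, -0.63, 0.50 and 2.43. For ASS1 they were HERC5, an interferon-induced ligase (0.56), CAMK1D, a kinase (0.58), GLI3, a transcription factor of Hedgehog signalling (0.58), MYC (0.62) and C6orf141 (0.62). HERC5 changed by -0.48, -0.16, -1.32 and -1.47 in C#1, C#2, C#3 and in C#6 and GLI3 by -0.49, -0.54, -1.51 and -1.65. These genes were selected for their likeness, and PAPSS1, ASL and AADAT changed by less than 1 log2 unit in every clone and were not matched.

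**Figure D5:**
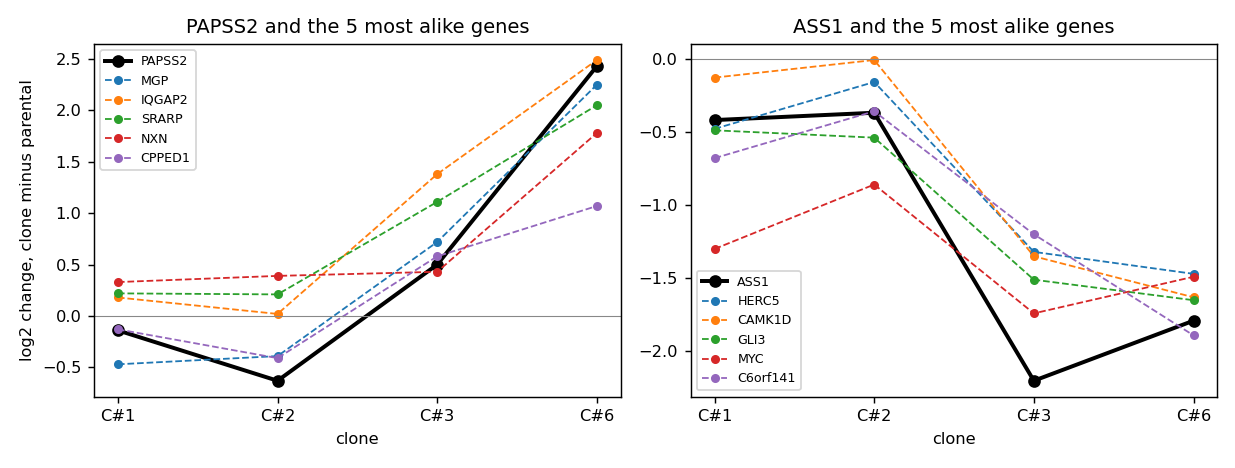
Log2 change (clone minus parental) in the 4 clones for PAPSS2 and ASS1 (black) and the 5 genes most like each (dashed), joined by lines to guide the eye. In C#6 the genes like PAPSS2 lie between 1.07 and 2.49, and those like ASS1 between -1.89 and -1.47.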

How the data were processed

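Total RNA of 15 samples was measured on Affymetrix arrays. The deposited values are log2 expression of 53617 probe sets. The submitters' processing notes name RMA, the Transcriptome Analysis Console and Affymetrix Expression Console (1.4.1) without the role of each or a genome build. RMA makes intensity distributions alike and compresses differences near background. Symbols came from the platform annotation, updated through gene identifiers to RefSeq (GRCh38.p14), which also gave gene order and promoter windows: 16098 probe sets had 1 symbol and 37519 had none here.

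Dim probe sets, those not above their array's 40th percentile in 3 or more arrays, were left out, and the highest-mean probe set stood for each gene. Group means were estimated jointly from the 15 arrays by limma (3.58.1, R 4.3.3; lmFit, eBayes), with Benjamini-Hochberg adjustment over all 12147 genes, and all adjusted p-values are limma's. SEs are from this fit. The procedure was tested on simulated arrays for C#1 against parental, with noise drawn independently for each gene and array. The share of changed genes recovered was 0.606 at 1.5-fold, 0.947 at 2-fold and 0.997 at 4-fold. A gene that was not called may thus still differ by a small amount.

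The members, lists and motifs were chosen with earlier results of these data known. Named genes are the 5 members, up to 8 called genes per list and up to 4 called flanking genes per member by largest change, the nearest flanking genes, and the 5 most alike genes. NDST1, IDS, ARSA, ARSD, GALNS, SGSH, SUMF2, AARS1 and EIF2AK4 were added after their values were seen, and a few uncalled genes were named for their place in a path. Same-numbered arrays of clone and parental had correlated deviations of -0.13 to 0.07 over genes (0 of 12 above 0.1), so the numbers were not treated as pairs. Same-numbered arrays of different clones are not reported here, so an effect of the replicate number shared among clones was not tested. The number of arrays limits the precision, and p-values measure only the spread between these arrays. The alternatives were the dim filter, renewed quantile normalization, median centring, the replicate number as a block, the mean of all probe sets, leaving out each array, the 6 arrays of a comparison alone, and eBayes with trend and robust settings. A range given beside a lost call covers all 15 fits that left out 1 array, also those that kept the call.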

Additional observations from a re-analysis of the deposited data

Results flagged for a closer look

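PAPSS2 lay on opposite sides of the parental line in different clones, with all arrays of C#2 below it and all arrays of C#3 and C#6 above it. C#2 minus C#3 was -1.12 and C#2 minus C#6 was -3.06 (log2, SE 0.13 each). The difference between the clones was not tested, since PAPSS2 was chosen for it.

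A number of the named genes, some of them described only further below, differed among the 4 clones in the limma F test. The adjusted p was 8.7e-05 for HS3ST3B1, 0.00416 for HS6ST2, 0.0103 for HS6ST3, 0.000115 for SQOR and 3.46e-05 for NDST1 in sulfonation and sulfur oxidation. In sulfate removal, it was 0.000149 for IDS, 0.0302 for ARSA, 0.00203 for ARSD, 0.01 for GALNS and 0.00561 for SUMF2. The adjusted p was 0.00463 for SAT1, 0.000236 for SAT2, 0.0024 for ADSS1, 0.0037 for DDAH1, 0.0058 for AZIN1, 0.0253 for PRODH and 0.0052 for ADSL in arginine, aspartate and polyamine metabolism. In kynurenine and amino group metabolism, it was 0.000346 for AHR, 0.00141 for ABAT, 0.000181 for DLST and 1.02e-06 for QPRT. The adjusted p was 0.0345 for ATF5, 0.0206 for EIF4EBP1, 0.00364 for PSPH, 0.00268 for EIF2AK3, 0.000598 for SHMT1, 0.00166 for CBS, 0.00279 for AARS1 and 7.09e-05 for EIF2AK4 in amino acid supply and the ATF4 response. In the reported regulators of ASS1, it was 0.00389 for HSF1 and 0.0209 for EPAS1. The adjusted p was 0.00321 for ANKRD22, 0.0389 for NUTM2A-AS1, 0.000141 for NPNT, 0.0116 for LEF1 and 0.0204 for TBCK in the genes flanking PAPSS2 and PAPSS1. In the genes flanking ASS1, it was 0.0311 for LOC100272217, 0.00109 for USP20, 0.00561 for FNBP1, 0.000936 for C9orf78 and 0.0494 for EXOSC2. The adjusted p was 7.55e-05 for CRCP, 0.00903 for LINC00174, 2.71e-05 for KCTD7 and 0.000192 for GALNT7 in the genes flanking ASL and AADAT. These p-values are adjusted over all 12147 genes, of which 22.5% were called by this test. Most of these genes were named because they were called in a clone, or after their values were seen. How many of them differ among the clones is therefore a description only.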

How the results depend on the processing

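Each enzyme gene had 1 probe set, so its difference could change only with renewed quantile normalization, median centring or leaving out 1 array. Under these alternatives the 5 enzyme genes kept the direction of their differences, except ASL in C#2, which was -0.03 without its replicate 3. With renewed quantile normalization the differences were 2.53 for PAPSS2 in C#6, 0.38 for PAPSS1 in C#3, 0.13 and 0.55 for ASL in C#2 and C#6, and -0.08 and -0.16 for AADAT in C#2 and C#3; the other 14 moved by less than 1 SD. Leaving out 1 array gave, in C#1, C#2, C#3 and in C#6, -0.21 to -0.07, -0.75 to -0.47, 0.44 to 0.60 and 2.42 to 2.44 for PAPSS2, and 0.28 to 0.36, 0.20 to 0.32, 0.25 to 0.34 and 0.45 to 0.59 for PAPSS1. For ASS1 it gave -0.61 to -0.22, -0.59 to -0.18, -2.59 to -1.93 and -2.09 to -1.62, for ASL 0.05 to 0.17, -0.03 to 0.08, 0.38 to 0.53 and 0.38 to 0.51, and for AADAT -0.39 to -0.18, -0.23 to -0.16, -0.29 to -0.20 and -1.0 to -0.57.

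The replicate number was also used as a block, although the labels do not say whether same-numbered arrays belong together. With it the ATF4 response had 12 calls in C#1 and 14 in C#3 and the ASS1 regulators 5 in C#1. No other count moved by over 1.5 times. The block is balanced over the groups, so it cannot change a member difference. With the 6 arrays of a comparison alone there were 4 calls in C#1 for arginine and polyamines, 11 in C#1 and 17 in C#3 for the ATF4 response, and 12 in C#3 for flanking genes. The ASS1 regulators had 5 calls in C#1 with a stricter dim filter or with trend and robust settings, and the flanking genes 7 in C#2 with renewed quantile normalization. The cause was not tested. Leaving out 1 array gave 5 to 10, 5 to 11, 6 to 11 and 7 to 14 calls for sulfate (11 to 16 among clones), 3 to 7, 3 to 8, 6 to 10 and 5 to 8 for arginine and polyamines (7 to 8), 4 to 7, 4 to 6, 2 to 6 and 3 to 9 for kynurenine (4 to 6), 3 to 8, 3 to 7, 6 to 11 and 4 to 11 for the ATF4 response (8 to 12), 3 to 5, 2 to 4, 2 to 3 and 5 to 6 for ASS1 regulators (1 to 2), and 8 to 13, 8 to 13, 3 to 9 and 4 to 14 for flanking genes, with 1229 to 2241, 1265 to 2224, 1275 to 2243 and 1889 to 2819 over all genes. Each run lists the clones by number. Dim genes such as KYNU, TAT and HS6ST2, near the filter threshold, have compressed differences.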

Other observations

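The sulfate list also held genes of sulfate removal, and those of them that were called are described here, chosen after their values were seen. ARSB, ARSL, ARSG, SUMF1 and SULF2 were not called in any clone. IDS, a lysosomal enzyme that takes sulfate off heparan and dermatan sulfate, averaged 6.80 ± 0.22 in C#3 and 6.90 ± 0.09 in C#6, against 7.37 ± 0.14 in parental cells (log2, SD, n = 3 each), with changes of -0.57 and -0.47 (SE 0.13). The C#6 call was lost without parental replicate 1 or C#6 replicate 3 (-0.51 to -0.39) and with renewed quantile normalization, and C#1 and C#2 had changes of 0.23 and 0.31 that were not called. ARSA, which takes sulfate off sulfatides, fell in C#3 (-0.60, SE 0.12), and its C#1 call (-0.38) was lost without parental replicate 2 or 3 or C#1 replicate 1 or 3 (-0.49 to -0.28) and with the 6 arrays alone. SUMF2, a relative of the factor that activates sulfatases, fell in C#1 (-0.56) and C#2 (-0.50, SE 0.10). SGSH, which takes sulfate off heparan sulfate, was called in C#2 (-0.46, SE 0.11), lost without parental replicate 3 or C#2 replicate 2 (-0.52 to -0.37). In C#6 2 sulfatases were called higher. ARSD was at 0.42 (SE 0.11), lost without parental replicate 2 or C#6 replicate 3 (0.33 to 0.51), and GALNS, which acts on keratan sulfate, at 0.39 (SE 0.11), lost without parental replicate 2 or C#6 replicate 2 or 3 (0.33 to 0.49).

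In amino acid sensing, EIF2AK4, the kinase that binds uncharged tRNA, fell in C#3 (-0.42, SE 0.10). It was called higher in C#1 (0.35) and C#2 (0.32), lost in C#1 without parental replicate 2 or 3 or C#1 replicate 1 or 2 (0.33 to 0.40) and in C#2 without any 1 parental array or C#2 replicate 1 or 3 (0.28 to 0.37) and with median centring. AARS1, the alanyl-tRNA synthetase, rose in C#6 by 0.46 (SE 0.12), and its C#3 call (0.44) was lost without parental replicate 1 or 3 or C#3 replicate 1 (0.31 to 0.54).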
